A study of Mus musculus with 28 samples.

Results

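MOZ-TIF2 cells kept for 5 days in DMSO, the solvent without the compound, were divided by how much of the myeloperoxidase transcript Mpo each cell held. Cells with under 500 Mpo UMIs (unique molecular identifiers, each counting 1 captured RNA molecule) per 1000000 UMIs of the cell, written CPM below, are called Mpo-low, and the others Mpo-high. Of the 1662 DMSO cells of day 5, 340 were Mpo-low and 1322 were Mpo-high, out of 5696 single cells in the series. The members were thus chosen by their measured Mpo count. The cells are mouse C57Bl/6 bone marrow stem and progenitor cells (c-Kit+) that carry a retroviral Ty1.MOZ-TIF2, were sorted on GFP and were replated serially in methylcellulose. Every condition compared here holds these same transduced cells, as a cell line grown in culture and not as tissue of an animal. The other conditions are DMSO for 1 day and benzarone at 5 µM for 1, 3 or 5 days. Benzarone is an inhibitor of the EYA phosphatases. The day 5 DMSO and benzarone cells were 1 sample, parted afterwards by antibody hashtags, and each other condition was a sample of its own. With 1 sample per condition there is no replicate error and no test across samples. All intervals given cover counting error only, at 95%.

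Neutrophils form their granules in sequence. The primary granules, filled first, at the promyelocyte stage, hold myeloperoxidase and the serine proteases neutrophil elastase (Elane), proteinase 3 (Prtn3) and cathepsin G (Ctsg), and their transcripts are switched off as the cell matures. Secondary granule transcripts such as Ltf, Camp, Ngp and Lcn2 follow under C/EBP-epsilon (Cebpe), and the calcium-binding pair S100a8 and S100a9 becomes very abundant. MOZ-TIF2 joins the MOZ histone acetyltransferase (Kat6a) to the coactivator TIF2 (Ncoa2), blocks this maturation and keeps the HOXA and MEIS1 programme of early progenitors active. A low Mpo level is therefore found on both sides of the promyelocyte, in earlier progenitors and in later cells.

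The cut lies at a level that some cells hold, not in an empty gap. The Mpo level had a median of 1975 CPM over all day 5 DMSO cells, with quartiles of 782 and 2849 and a maximum of 7319, and 59 cells had no Mpo UMI. Cells were also numerous near 0, with 170 above 0 and under 200 CPM and 111 from 200 to 500. In wider bins, 141 lay from 500 to 1000 and 366 from 1000 to 2000. Just below the cut, 31 cells lay between 400 and 500, and just above it 30 lay between 500 and 600. The classes are thus ranges of 1 measured level that meet at the cut, and whether they are separate populations was not tested. Mpo itself chose the classes and is left out of every comparison below. Depth was alike: the median was 24428.5 UMIs per cell in Mpo-low and 24587 in Mpo-high cells, with 3981.5 and 4049 genes detected. Mitochondrial transcripts took a median of 2.22% and 2.53%, and ribosomal protein transcripts 28.7% and 31.3%. The summed UMIs were 8407733 and 33100737. Between the table of days 1 and 3 and that of day 5, 9 cell barcodes recurred, 3 of them among the day 5 DMSO cells.

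The share of Mpo-low cells on day 5 of DMSO was 20.5% (340 of 1662, interval 18.5% to 22.5%). It was 19.3% (170 of 883, interval 16.7% to 22.0%) on day 1 of DMSO and 20.7% (171 of 826) on day 1 of benzarone, and these intervals overlap. In benzarone it was 43.8% (363 of 829) on day 3 and 97.9% (1465 of 1496) on day 5. The DMSO shares of day 1 and day 5 come from separate samples at different depth, with median UMIs per cell of 42565 and 24575.5.

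**Figure D1:**
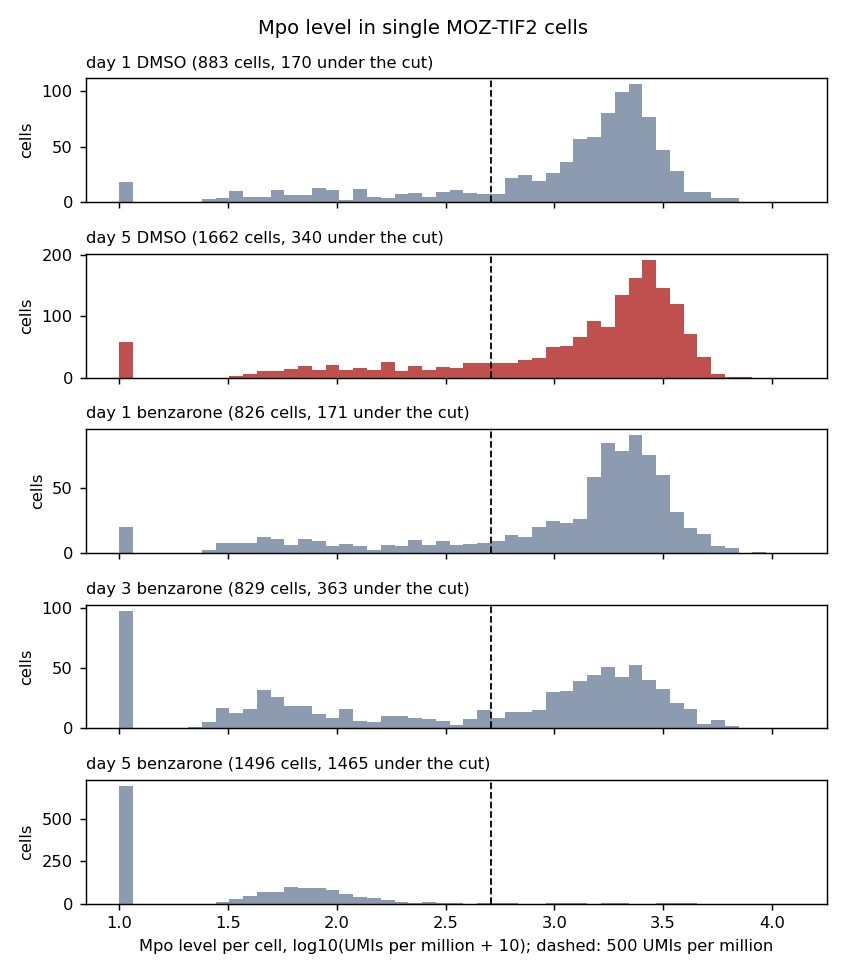
Histograms of the Mpo level per cell, log10(CPM + 10), for the 5 conditions, with the number of cells on the vertical axis and the 500 level dashed. On day 5 of DMSO 340 of 1662 cells lie left of the line, on day 5 of benzarone 1465 of 1496.

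At the 2-fold mark, more genes were higher than lower in Mpo-low cells. A ratio of summed UMIs, each scaled to CPM, of at least 2 either way was counted, among genes with at least 20 UMIs over both classes and at least 10 CPM in the higher class. Of the 6478 genes compared, 349 were higher in Mpo-low cells (5.39%) and 38 were lower (0.587%). The median log2 ratio of all genes compared was -0.09, and 2626 of the 6478 had a ratio above 1. Small differences were thus more often on the lower side. Of the 349 higher genes, 161 reached 10 CPM in both classes, and the others only in Mpo-low cells. These values describe cells that the Mpo rule itself selected.

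Late neutrophil genes were the most raised of the lists. Of the 26 genes of the secondary granule and late neutrophil list, 22 were compared and 21 were higher in Mpo-low cells, none was lower, and the median log2 ratio was 3.20, against the background of 5.39% of genes higher. Of these 22 genes, 7 reached the level filter in Mpo-low cells alone, so the count is no independent measure. S100a8 and S100a9, which form the calprotectin of the neutrophil cytosol, were the most abundant. S100a8 ran from 0 through a median of 1572 to 183881 CPM in single Mpo-low cells, and from 0 through 273 to 87969 in Mpo-high cells. The 2 ranges overlapped, and the upper quartile of Mpo-low cells, 39068, was far above the 396 of Mpo-high cells. Summed over the class, S100a8 stood at 20533 CPM in Mpo-low and 1842 in Mpo-high cells, a ratio of 11.1 (11.0 to 11.3). S100a9 stood at 16043 and 1124.

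The secondary granule genes had steep ratios that rested in large part on few cells. Ngp, a cathelin-like granule protein, had 940 CPM in Mpo-low and 13.8 in Mpo-high cells (ratio 68.1, 61.9 to 75.0). It was seen in 106 of the 340 Mpo-low cells, and 10 of them held 65.9% of its UMIs. Ltf, the iron-binding lactoferrin, stood at 139 and 3.53 CPM, and its 10 highest cells held 83.5% of its UMIs. Camp, the cathelicidin precursor, stood at 89.4 and 2.48 and was seen in 28 Mpo-low cells, 10 of which held 89.5%. Without those 10 cells each, and against all Mpo-high cells, Ngp, Ltf and Camp had ratios of 23.6, 6.59 and 3.88. Genes with wider expression were Mmp8, the neutrophil collagenase, at 619 and 32.4 CPM in 221 Mpo-low cells, and Lcn2, a siderophore-binding lipocalin, at 729 and 75.2 in 251 cells. Lyz2, the lysozyme of myeloid cells, stood at 2738 and 537 CPM. It was detected in all 340 Mpo-low cells and in 99.8% of Mpo-high cells. Lcn2 was detected in 73.8% of Mpo-low and 59.2% of Mpo-high cells, and Mmp8 in 65% and 36.1%. For Ngp the shares were 31.2% and 25.3%. Detection of these genes was thus not limited to Mpo-low cells. Csf3r, the G-CSF receptor, was the 1 compared member that stayed under a ratio of 2, at 17.0 and 10.4.

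The cystatin-like stefins of the Stfa cluster were raised together. BC100530 stood at 5164 CPM in Mpo-low and 353 in Mpo-high cells, Gm5483 at 4759 and 276, Stfa1 at 2993 and 512, and Stfa2 at 331 and 4.08. All 9 stefin genes listed were higher, with ratios from 5.85 for Stfa1 to 81.1 for Stfa2. These copies are near-identical, so reads may be divided among them by the counting, and the level of a single copy is uncertain.

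The promoters below are of 6 late neutrophil genes that were higher, then of Ctsg of the primary granules, which was lower. They were chosen with their matches known, to show genes with a match (Ngp, Ltf, Mmp8 and Lcn2) beside raised genes without one (S100a8 and Camp). Each is the stretch of 250 bases upstream of the transcription start in RefSeq on GRCm38.p6, written 5′ to 3′ in the direction of the gene. Capitals mark matches to TTGCNNAA or to its reverse complement TTNNGCAA, both of the type bound by C/EBP factors.
Ngp, chr9:110419558-110419807, + strand: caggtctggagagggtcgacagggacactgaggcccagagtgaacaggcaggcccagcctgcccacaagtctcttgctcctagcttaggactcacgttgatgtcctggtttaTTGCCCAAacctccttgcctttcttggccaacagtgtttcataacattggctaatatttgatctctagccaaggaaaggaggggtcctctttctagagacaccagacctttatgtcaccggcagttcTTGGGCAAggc
Ltf, chr9:111019042-111019291, + strand: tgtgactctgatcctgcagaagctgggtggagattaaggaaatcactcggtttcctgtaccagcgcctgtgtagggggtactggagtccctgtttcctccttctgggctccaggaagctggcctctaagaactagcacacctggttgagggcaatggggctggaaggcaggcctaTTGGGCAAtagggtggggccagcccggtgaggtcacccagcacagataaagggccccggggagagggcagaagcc
Mmp8, chr9:7558179-7558428, + strand: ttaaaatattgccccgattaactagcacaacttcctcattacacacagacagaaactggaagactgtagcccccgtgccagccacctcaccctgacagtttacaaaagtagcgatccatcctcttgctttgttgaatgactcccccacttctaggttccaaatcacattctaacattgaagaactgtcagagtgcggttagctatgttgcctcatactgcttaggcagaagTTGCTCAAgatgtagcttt
Lcn2, chr2:32387740-32387989, - strand: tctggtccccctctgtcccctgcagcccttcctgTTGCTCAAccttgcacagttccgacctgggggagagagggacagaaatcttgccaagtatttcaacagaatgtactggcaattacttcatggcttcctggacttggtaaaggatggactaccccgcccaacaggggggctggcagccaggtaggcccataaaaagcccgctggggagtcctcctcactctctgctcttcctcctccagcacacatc
S100a8, chr3:90668821-90669070, + strand: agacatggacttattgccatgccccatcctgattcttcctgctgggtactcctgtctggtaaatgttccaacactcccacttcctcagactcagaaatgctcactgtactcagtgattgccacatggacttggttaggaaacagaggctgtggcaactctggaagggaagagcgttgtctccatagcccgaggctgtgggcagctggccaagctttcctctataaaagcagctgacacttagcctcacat
Camp, chr9:109849457-109849706, - strand: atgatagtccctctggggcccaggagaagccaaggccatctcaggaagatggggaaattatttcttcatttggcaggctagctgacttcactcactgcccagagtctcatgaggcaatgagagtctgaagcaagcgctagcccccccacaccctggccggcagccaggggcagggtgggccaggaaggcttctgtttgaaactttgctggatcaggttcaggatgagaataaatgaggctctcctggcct
Ctsg, chr14:56102575-56102824, - strand: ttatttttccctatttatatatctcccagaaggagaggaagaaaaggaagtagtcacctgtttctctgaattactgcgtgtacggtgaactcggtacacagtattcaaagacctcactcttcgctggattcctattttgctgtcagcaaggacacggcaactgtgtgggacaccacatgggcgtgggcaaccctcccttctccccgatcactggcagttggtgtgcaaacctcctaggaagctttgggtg
Over all RefSeq promoters of this length, 9.55% (2582 of 27025) held such a match, as did 7.79% of those of the genes compared (393 of 5042). Among the higher genes with a promoter entry the share was 13.0% (34 of 261), among the lower genes 4% (1 of 25), and among the higher late neutrophil genes 36.8% (7 of 19). With the looser TTNNGNAA, which includes every match of TTNNGCAA, the shares were 29.4% of the genes compared, 37.5% of the higher genes, 36% of the lower genes and 68.4% of the higher late neutrophil genes. A match describes these letters and is no binding site, and its absence in S100a8, Camp and Ctsg says only that the letters are not in this window.

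**Figure D2:**
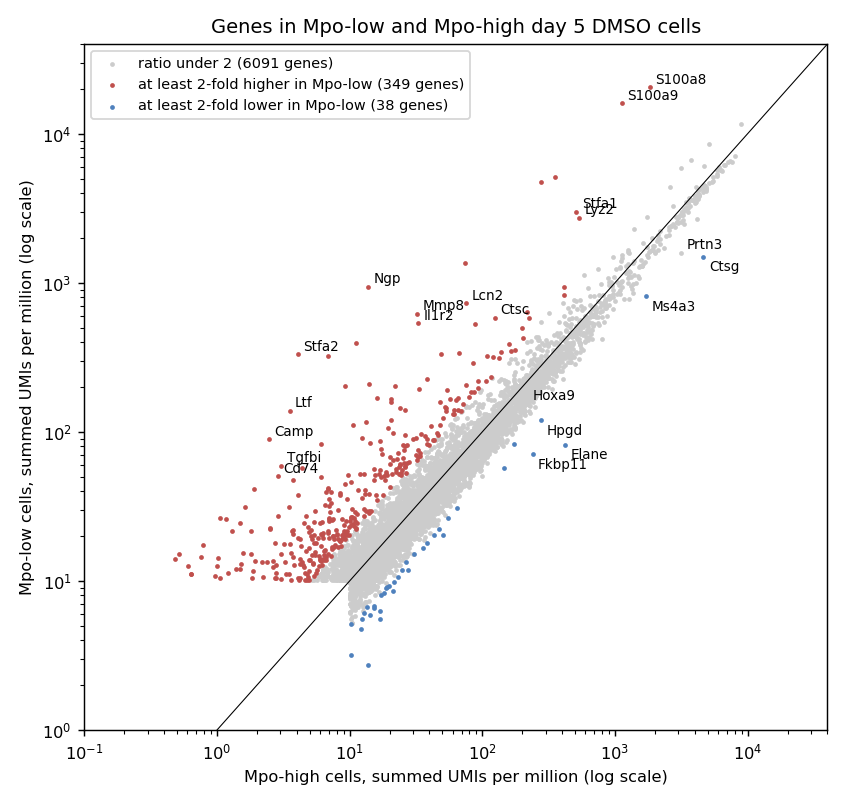
Each point is 1 of the 6478 compared genes, with its summed CPM in the 1322 Mpo-high cells (horizontal) and the 340 Mpo-low cells (vertical), both on log scales, and the line marks equal levels. The 349 genes at least 2-fold higher in Mpo-low cells spread far above the line, while the 38 lower ones lie below it.

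Primary granule genes were lower as a group, with an exception. Of 10 compared genes of the list, 4 were lower (background 0.587%) and 1 was higher, and the median log2 ratio was -0.66. Elane, neutrophil elastase, had a median of 0 and a maximum of 2066 CPM in single Mpo-low cells, against 125 and 12538 in Mpo-high cells. Its summed level was 82.1 against 419 (ratio 0.196, 0.181 to 0.211), the lowest ratio among genes of at least 50 CPM. Ctsg had a median of 867 CPM in Mpo-low and 4326 in Mpo-high cells, with maxima of 10250 and 19771, and sums of 1490 and 4651 (log2 ratio -1.64). Prtn3 had medians of 1265 and 3122 and sums of 1594 and 3154, a log2 ratio of -0.98, just short of the 2-fold mark. The single-cell ranges of all 3 proteases overlapped between the classes. Ms4a3, a membrane protein of granulocyte and monocyte progenitors, stood at 814 and 1717, and Cst7, cystatin F, at 57.2 and 146. Srgn, the granule proteoglycan, stood at 693 and 769. Ctsc, the dipeptidyl peptidase that activates these proteases, went the other way, at 581 and 124 (log2 ratio 2.22). Among other named genes that were lower, Fkbp11, a chaperone of the secretory pathway, stood at 70.9 and 240 and Hpgd, which inactivates prostaglandins, at 120 and 277.

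In single cells, the summed primary granule list, which leaves Mpo out, was below the 5th percentile of Mpo-high cells in 155 of 340 Mpo-low cells and above their 95th percentile in none.

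Along the Mpo level the lists did not move together. In cells with no Mpo UMI the late neutrophil list had a median of 68924 CPM over 59 cells. It was 19854 in the 170 cells above 0 and under 200, 2132 in the 111 cells from 200 to 500, and 1338 in the 141 cells from 500 to 1000. Above that it stayed between 1276 and 1818. The list is a plain sum that S100a8 and S100a9 lead. In cells with no Mpo UMI they held 39902 and 32203 of its summed 89762 CPM. The primary granule list had medians of 4018, 4523, 6295 and 6496 over the same 4 bins and reached 18886 in the 95 cells with 4000 or more. The late neutrophil level thus differed mostly below the cut, and the primary granule level mostly above it. The list of ER chaperones and the unfolded protein response also differed along the range, from 3122 at no Mpo to 6572 at the top, while the mitosis list had 959 in cells with no Mpo UMI and 2092 to 2385 in every other bin.

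**Figure D3:**
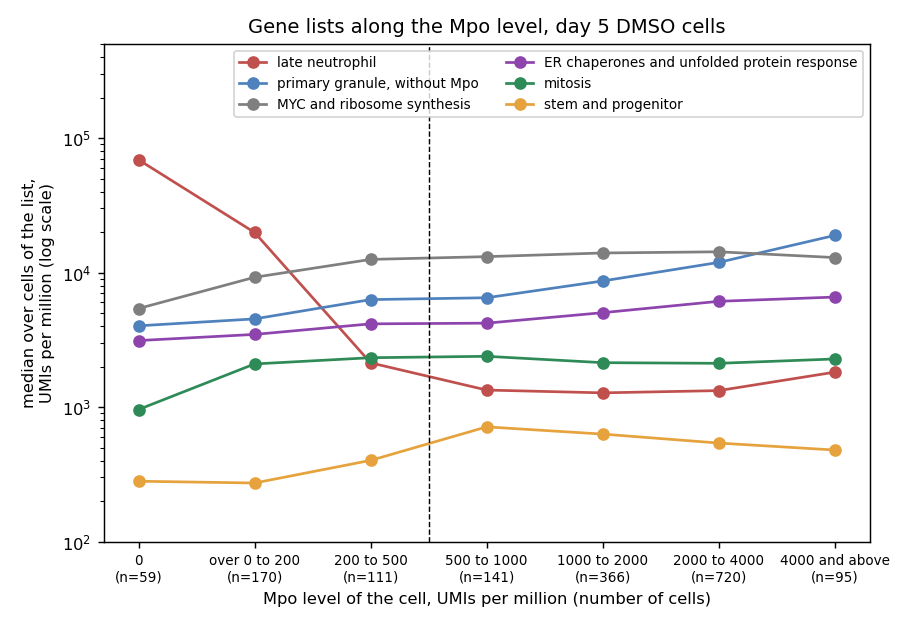
Median over cells of 6 summed gene lists (CPM, log scale) in 7 bins of the Mpo level of the cell, with the number of cells in each bin, and the 500 level dashed. The late neutrophil list drops from 68924 to 1338 across the 4 lowest bins and the primary granule list reaches 18886 in the highest bin.

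Monocyte and macrophage genes were raised to a lesser degree. Of 19 compared genes of that list 10 were higher, against 5.39% of all genes, 7 of the 19 passed the level filter through Mpo-low cells alone, and the median log2 ratio was 1.13. The summed list stood at 1361 CPM in Mpo-low and 712 in Mpo-high cells. Tgfbi, a secreted matrix protein of monocytes, stood at 59.0 and 3.05, Ctss, a lysosomal cysteine protease, at 98.1 and 21.1, and Lpl, lipoprotein lipase, at 70.9 and 17.6. Csf1r, the M-CSF receptor, stood at 14.5 and 6.65 and fell short of 2-fold without cells at benzarone levels of Ccl6 or Lyz2, while Irf8, a regulator of monocyte fate, stood at 39.8 and 29.2. Per cell, the monocyte list exceeded the 95th percentile of Mpo-high cells in 136 of 340 Mpo-low cells, and 109 of these also exceeded it for the late neutrophil list.

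Some genes of other lineages rested on very few cells. Of the mast cell and basophil list, 4 genes were compared, 3 of them higher and 1 lower. Cpa3, the mast cell carboxypeptidase, stood at 21.5 and 3.66 CPM, was seen in 15 Mpo-low cells, and had 95.6% of its UMIs in 10 of them. In the Mpo-high class, too, 10 cells held 99.2% of its UMIs, so that the level of either class rests on about 10 cells. The list exceeded the 95th percentile of Mpo-high cells in 14 Mpo-low cells. No eosinophil gene was compared, and of the erythroid and lymphoid lists 1 gene each was compared, Tfrc and Nkg7, neither past 2-fold. Cd74, the class II invariant chain, stood at 50.3 and 2.90 CPM with 58.4% of its UMIs in 10 cells.

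Genes of surface sensing and movement were higher. Of 23 compared adhesion and migration genes 13 were higher and none was lower, with a median log2 ratio of 1.13, against 5.39% of all genes higher. Of the 23, 6 passed the level filter through Mpo-low cells alone, and 8 of the 13 reached it in both classes. They include the chemokine receptor Ccr1 at 111 and 10.6 CPM, the galectin Lgals3 at 336 and 48.8, the integrin subunit Itgam at 37.7 and 8.46 and the formyl peptide receptor Fpr2 at 17.5 and 0.785. Il1r2, the decoy receptor for interleukin 1, had a median of 207 CPM in Mpo-low cells and 0 in Mpo-high cells, with maxima of 7374 and 830. Its summed level was 534 against 32.7 (ratio 16.4, 15.3 to 17.5). Of 11 compared growth factor and cytokine receptors 5 were higher (background 5.39%, with 4 of the 11 past the filter through Mpo-low cells alone). Among them were the receptor beta chains Csf2rb at 167 and 57.2 and Csf2rb2 at 23.1 and 4.89. Against the same 5.39%, 6 of 23 lysosomal genes were higher, all 6 at the filter's level in both classes. Of 15 immediate early genes 8 were higher, 6 of them at that level in both, including Fos at 66.4 and 25.1.

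Several brakes of the cell cycle were higher. Of 12 compared genes of the list of brakes, cyclins and kinases 7 were higher, the cyclin Ccnd3 among them, with a median log2 ratio of 1.19. The background is 5.39%, 5 of the 12 passed the level filter through Mpo-low cells alone, and 4 of the 7 reached it in both classes. The CDK inhibitor Cdkn1a stood at 208 and 75.7 CPM, Cdkn2d at 110 and 41.0, and the antiproliferative Btg1 at 81.6 and 27.1, while the kinases Cdk6 and Cdk4 stood at 107 and 176, and at 340 and 460. Of 27 mitosis genes none passed 2-fold in either direction, with a median log2 ratio of 0.04, and of 29 replication genes none did, with a median of -0.21. Mki67, a marker of cycling cells, stood at 73.4 and 52.8. The spread between cells was wider in the Mpo-low class: its mitosis list was above the 95th percentile of Mpo-high cells in 46 of 340 cells and below the 5th percentile in 83.

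Genes of MYC and ribosome synthesis were lower by small amounts. None of 29 compared genes passed 2-fold downward, and the median log2 ratio was -0.57. Ncl, nucleolin, stood at 908 and 1344 CPM, Npm1, nucleophosmin, at 2465 and 3318, and Myc itself at 50.7 and 68.9. The 2 members that were higher, Mxd1 at 35.4 and 6.95 and Mxi1 at 26.2 and 8.73, encode MAX partners that oppose MYC. Both passed the level filter through Mpo-low cells alone, and 2 of 29 is near the background of 5.39%. None of 20 genes of ER folding passed 2-fold, with a median of -0.35, and none of 14 genes of amino acid supply, with a median of -0.48. The 9 compared HOXA and MEIS genes had a median of -0.34 and none passed 2-fold. Hoxa9 stood at 155 and 217 and Meis1 at 35.6 and 23.9, so that Meis1 was on the other side of 1 from Hoxa9. Eya1 was not among the compared genes.

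The class averages join unlike cells. A level above the 95th percentile of Mpo-high cells was called high, for the late neutrophil list (12298 CPM) and for the stem and progenitor list (1339). This division was made after the values were seen. Of the 340 Mpo-low cells, 164 (48.2%) were late-high, 50 (14.7%) were stem-high without being late-high, and 126 (37.1%) were neither. Only 4 cells were high for both lists, and they count as late-high. The median depth was 23133.5 UMIs in late-high, 21272.5 in stem-high and 26542 in the remaining cells. The genes of each list chose their own cells and are no finding there. The late neutrophil sum is led by S100a8 and S100a9, so late-high marks mainly cells high in those transcripts.

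**Figure D4:**
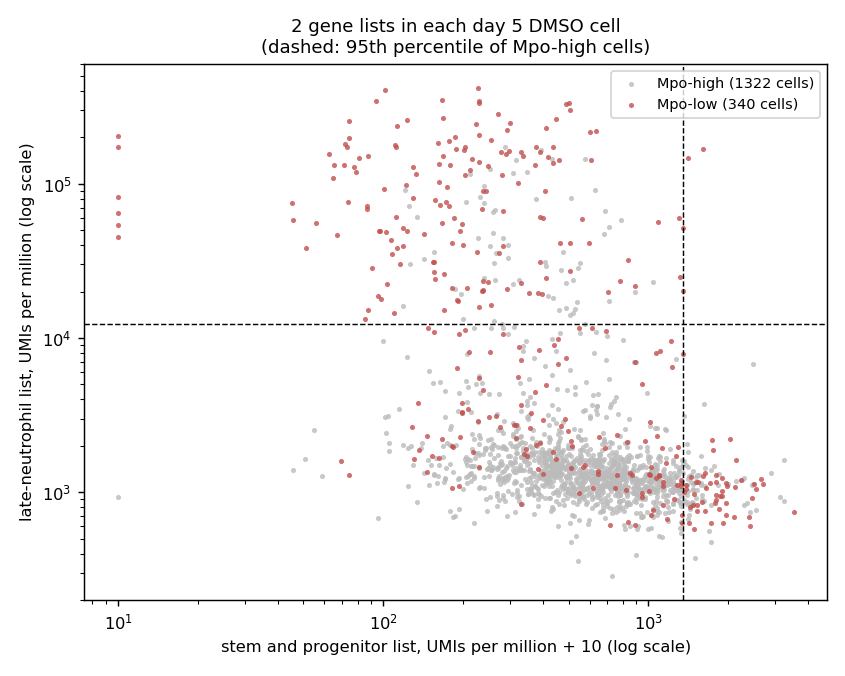
Each point is 1 day 5 DMSO cell, with its summed stem and progenitor list (horizontal, CPM + 10) and its summed late neutrophil list (vertical, CPM), both on log scales, and dashed lines at the 95th percentiles of Mpo-high cells. Of the Mpo-low cells, 164 lie above the horizontal line, 50 others right of the vertical line, 126 past neither, and 4 past both.

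Late-high cells had low progenitor and ribosome synthesis genes. Against Mpo-high cells, 614 of 6585 genes were higher (9.32%) and 625 were lower (9.49%), and the median log2 ratio over all genes was -0.24. Of the 9 HOXA and MEIS genes 6 were lower, with a median of -1.24. Of the 29 MYC and ribosome synthesis genes 17 were lower and 3 were higher, with a median of -1.11. Hoxa9 stood at 74.2 CPM in late-high and 217 in Mpo-high cells, Meis1 at 4.91 and 23.9, and Npm1 at 1681 and 3318. Cebpe, the regulator of secondary granule genes, stood at 109 in late-high cells and 8.64 in the remaining cells. It stood at 0.935 (1 UMI) in stem-high cells and 22.2 in Mpo-high cells. By Mpo level, Cebpe stood at 81.2 CPM in cells with no Mpo UMI and 15.1 in those from 500 to 1000. In cells with 4000 or more it stood at 75.4, so a high Cebpe level was not confined to Mpo-low cells. The proteases differed in where they were lowest: Elane stood at 110 and Prtn3 at 1614 in late-high cells, above the 9.35 and 650 of stem-high cells, and Ctsg at 1159, below their 1354. The mitosis list had a median of -0.04.

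In stem-high cells most primary granule genes were lower, and a minority of HOXA and MEIS genes was at least 2-fold higher. Of 6801 genes 532 were higher than in Mpo-high cells (7.82%) and 254 were lower (3.73%), with a median log2 ratio of 0.06 over all genes. Hoxa9 stood at 338 CPM against 217, Hoxa7 at 166 against 89.5, Hoxa10 at 121 against 65.1 and Hoxa5 at 50.5 against 14.3. Of the 9 HOXA and MEIS genes 3 were at least 2-fold higher and none was lower, with a median of 0.89, and Meis1 among them also belongs to the list that chose the cells. Hoxa5 was past 2-fold, and Hoxa9, Hoxa7 and Hoxa10 were not. Of the 10 primary granule genes 6 were lower and 1 was higher, with a median of -1.27. The higher one was Nkg7, which is also in the lymphoid list. Elane stood at 9.35 (10 UMIs) against 419, Ms4a3 at 127 against 1717 and Prtn3 at 650 against 3154, while Cst7 stood at 147 against 146. Among the genes with the largest rises, named after their values were seen, were Il12a, the p35 subunit of interleukin 12, at 116 against 5.17, Ctla2a, a cysteine protease inhibitor, at 285 against 28.1, and Hmga2, an architectural chromatin protein of fetal stem cells, at 90.7 against 12.1. Of the 27 mitosis genes 3 were higher, with a median of 0.45, and Top2a, the topoisomerase of dividing cells, stood at 265 against 135. Markers of other cell types moved with this group: 3 of 4 compared dendritic genes, 3 of 3 lymphoid genes, 2 of 2 class II genes and 3 of 4 mast cell and basophil genes were higher. Among them Tcf4, a factor of plasmacytoid dendritic cells, stood at 103 against 21.7, Nkg7, a granule protein of killer cells, at 239 against 51.4 and Cpa3 at 49.5 against 3.66. Flt3, a dendritic and stem cell receptor, is also in the stem list, as are Kit and Gata2 of the mast cell and basophil list. Cpa3 passed the level filter through stem-high cells alone. The median over cells of the mast cell and basophil list was 0 CPM in stem-high cells. Lists that share members give counts that are not independent. The part of these cell types in the result was not tested.

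The remaining 126 Mpo-low cells had fewer genes past 2-fold. Of 6469 genes 173 were higher (2.67%) and 32 were lower (0.495%). Il1r2 stood at 373 CPM against 32.7, Ccr1 at 66.3 against 10.6, Id2, an inhibitor of E proteins, at 94.5 against 16.0, and Ctsc at 513 against 124. Ngp stood at 11.8 against 13.8, and S100a8 at 690 against 1842. Among the late neutrophil genes, Mmp8 stood at 304 against 32.4 and Lcn2 at 182 against 75.2. Since cells with a high late neutrophil list were taken out of this group and not out of the Mpo-high cells, its sums of late neutrophil genes are limited by that choice. The median over cells of the list was 1991 CPM in these cells and 1327 in Mpo-high cells. Of the 10 primary granule genes 5 were lower and 1 was higher, with a median of -1.02. Of 6 compared mast cell and basophil genes 5 were higher, with a median of 2.77. Among them were Cpa3 at 36.0 against 3.66 and Gata2, a factor of mast cells and early progenitors, at 12.7 against 2.84. Both passed the level filter through the remaining cells alone, and Cpa3 was seen in only 15 cells of the whole Mpo-low class. The median over cells of the mast cell and basophil list was 0 CPM in the remaining cells and 28.8 in Mpo-high cells. The part of mast cells or basophils in the result was not tested. Of the 9 HOXA and MEIS genes none passed 2-fold in either direction.

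Ordered by the late neutrophil list and cut into 4 groups of 85, the Mpo-low cells can be described along that list. S100a8, Ngp and Ltf belong to the list that set the order, so their values describe the groups. In the top group S100a8 and S100a9 held 77614 and 65413 of the list's 164312 CPM. S100a8 stood at 202, 766, 16631 and 77614 CPM from the lowest to the highest group. Ngp stood at 10.7, 12.4, 8.13 and 4622, so that it was high in the top group alone, and Ltf at 2.55, 2.90, 8.98 and 669. Cebpe stood at 2.04, 10.8, 47.1 and 184. Hoxa9 ran the other way, at 322, 151, 95.8 and 47.8, and Hpgd at 248, 155, 59.5 and 2.95. Cycle genes were not alike: Mki67 stood at 70.3, 74.2, 72.7 and 76.7, and Top2a at 225, 191, 161 and 120. The summed mitosis list stood at 3073, 2536, 2502 and 2139, and the replication list at 3006, 3013, 2453 and 1719. The top group had a lower depth, with a median of 18490 UMIs per cell.

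The same split of the day 1 DMSO cells, another sample and another table, gave the same direction for most genes. There 528 of 6915 genes were higher in Mpo-low cells (7.64%) and 181 were lower (2.62%). Of the 317 genes higher on day 5 and compared on both days, all 317 were on the same side on day 1, and 290 were at least 2-fold higher, which is 91.5% of the day 5 genes and 67.6% of the 429 day 1 genes. Of 29 lower genes, 22 were at least 2-fold lower on day 1 too, 75.9% of the day 5 genes and 14.4% of the 153 day 1 genes, and 28 were on the same side. Of all 6915 genes compared on day 1, 2573 had a ratio above 1, so the lower side was the more common one. Elane stood at 84.8 CPM in Mpo-low and 591 in Mpo-high cells of day 1, S100a8 at 12108 and 2124, and Il1r2 at 509 and 35.0. Dividing the Mpo-low cells of day 1 by the same rule gave 66 late-high, 18 stem-high and 86 remaining cells of 170. The levels were set by that day's own Mpo-high cells, and cells past neither level count as remaining. The rule itself forms these groups, so their presence on day 1 is no test of whether the kinds recur. Hoxa9 stood at 63.6 in late-high, 250 in stem-high and 215 in Mpo-high cells on day 1, and Il12a at 0.383 (1 UMI), 80.5 and 5.87. Ngp stood at 172 in late-high cells of day 1 and 2030 in those of day 5, where the levels that called a cell late-high, set by each day's Mpo-high cells, were 20207 and 12298.

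**Figure D5:**
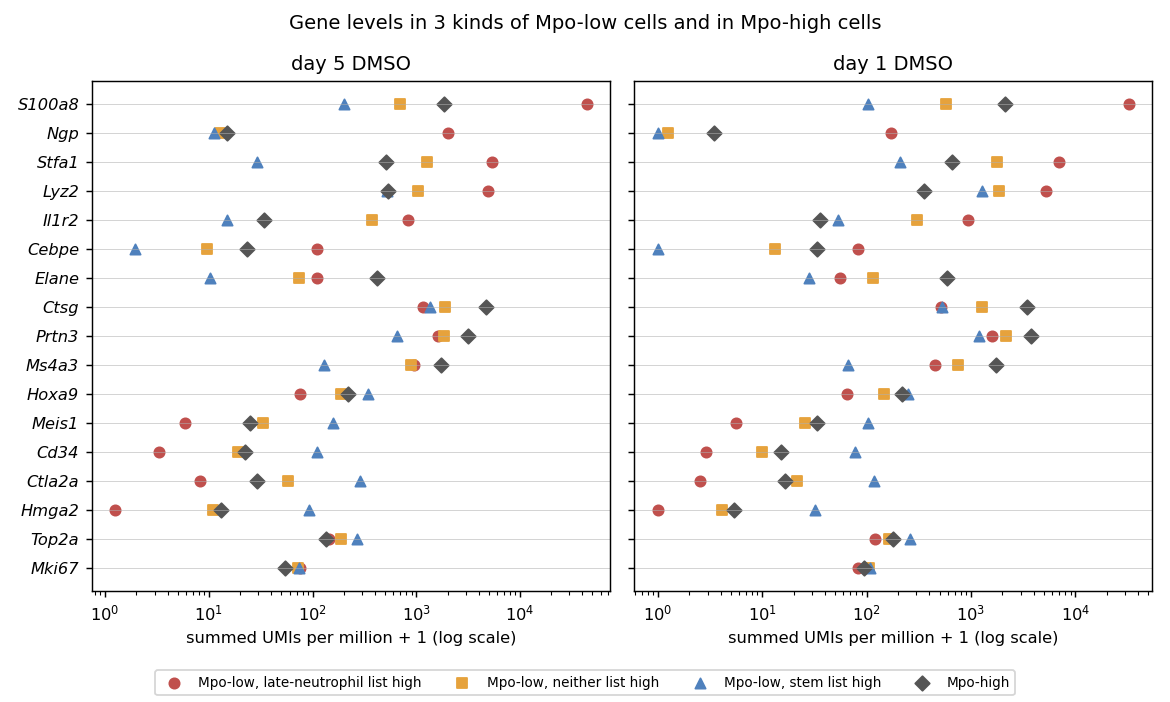
Summed CPM + 1 (log scale) of 17 genes in late-high, remaining and stem-high Mpo-low cells and in Mpo-high cells, on day 5 (left) and day 1 (right) of DMSO. On both days S100a8 is highest in late-high cells (43962 and 32516 CPM) and Hmga2 in stem-high cells (90.7 and 31.1).

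Chemokine and monocyte genes had unlike values on the days, a difference that was not tested. Of 15 compared chemokine and inflammation genes 6 were higher in Mpo-low cells on day 5, with a median log2 ratio of 0.56, and 12 of 14 on day 1, with a median of 3.28. The monocyte list had 10 of 19 higher on day 5 and 17 of 18 on day 1. Over all genes compared, 5.39% were higher on day 5 and 7.64% on day 1. Of the 15 chemokine and inflammation genes of day 5, 2 passed the level filter through Mpo-low cells alone. The members differ between the days: 21 chemokine and 29 monocyte genes were listed on day 5, and 17 and 25 on day 1. Pf4, platelet factor 4, stood at 107 CPM in Mpo-low and 121 in Mpo-high cells on day 5, and at 47.0 and 1.37 on day 1. Ppbp, a related chemokine, stood at 96.0 and 99.1 on day 5 and at 151 and 0.893 on day 1. Both were thus even across the classes on day 5, at levels well above the Mpo-high cells of day 1. In the Mpo-low benzarone cells of the same day 5 sample, Pf4 stood at 3451 and Ppbp at 4149. The part that free RNA from those cells has in the day 5 DMSO values was not tested. Ccl6, a chemokine that was higher in Mpo-low cells of day 5 (634 CPM), stood at 219 in Mpo-high cells of day 5 and 28.2 in those of day 1, with 8930 in the Mpo-low benzarone cells of day 5.

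Mpo-low cells without the compound differed from Mpo-low cells with it. Of 6831 genes compared between the 340 DMSO and 1465 benzarone cells of the day 5 sample, 526 were at least 2-fold higher in DMSO (7.7%) and 703 were lower (10.3%). Of 26 monocyte and macrophage genes none was higher and 23 were lower, with a median log2 ratio of -3.05. Arg1, arginase, stood at 21.5 CPM in DMSO and 1306 in benzarone, Ccl2, a monocyte-attracting chemokine, at 65.4 and 2367, and Lyz2 at 2738 and 19289. The late neutrophil list was mixed, with 6 of 25 genes higher and 9 lower and a median of -0.14. S100a8 stood at 20533 and 11745, and Ngp at 940 and 697. Replication genes (18 of 29 higher) and mitosis genes (12 of 27 higher) stood higher in the DMSO cells, as did Hpgd, at 120 and 3.20, and Phgdh, of serine synthesis, at 342 and 58.9. Of the 340 Mpo-low DMSO cells, 3 reached the benzarone median of Ccl6 and 26 that of Lyz2, 27 cells in all. Without cells at those levels 321 genes were higher and 29 lower in Mpo-low DMSO cells, and the log2 ratio of Ltf was 3.63 in place of 5.30.

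Binding of the fusion protein was read from chromatin immunoprecipitation with the Ty1 tag in MOZ-TIF2 cells. A gene was counted as having a peak when a replicate 1 peak that overlapped a replicate 2 peak lay within 5 kb of it, and 6447 of the 6478 compared genes had a RefSeq position on GRCm38.p6. Such a peak was found at 44.1% of all these genes (interval 42.9% to 45.3%). Among the genes higher in Mpo-low cells it was 17.1% (59 of 346, interval 13.2% to 21.4%), and among the lower genes 23.7% (9 of 38, interval 11.4% to 40.2%). Genes of low expression had fewer peaks, and for the higher genes the difference was also present within each of 3 classes of level. It was 13.9% of the higher genes against 38.7% of all genes in the lowest class, 21.5% against 44.3% in the middle and 22.4% against 49.4% in the highest. Of the lower genes, 3 of 19, 2 of 11 and 4 of 8 had a peak in these classes. In the highest class that is 50%, next to the 49.4% of all genes. No gene of the 22 late neutrophil genes had a peak. Of the 10 primary granule genes 5 had one, namely Elane, Prtn3, Ctsg, Prss57 and Srgn. The peak counted for Elane lies within the neighbouring gene Prtn3 and was counted for both, and Elane had no such peak within 1 kb. A peak was also found at 8 of 9 HOXA and MEIS genes and 25 of 29 MYC and ribosome synthesis genes. Cebpe had no peak, while its relatives Cebpa and Cebpb had one. The binding was measured in the cells as a whole and not in Mpo-low cells, and for 1 of the replicates the labels name an antibody catalogue number of acetylated histone.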

How the data were processed

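Single-cell RNA was read with the 10x 3' kit (version 2 chemistry) with antibody hashtags, per the labels' protocols. The deposited tables hold whole UMI counts per gene and cell, not normalized, with Cell Ranger 3.0.0 named in the submitters' processing notes. They list part of the genes, 11662 for day 5 and 9448 for days 1 and 3, with 9166 in both, so totals are over listed genes. Each cell's condition comes from the deposited cell table, and how hashtags were called is not given in the sources used here. No cell was removed: the lowest DMSO cell of day 5 had 6114 UMIs and the highest mitochondrial share was 5.00%. No doublet caller was run, and results without the deepest 5% of cells are among the alternatives. Peak lists hold intervals on GRCm38 as deposited by the authors, with Bowtie2 named in the submitters' processing notes. Their starts were taken as counted from 0.

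From the counts, UMIs were summed over the cells of a class and given per 1000000 of the class total (CPM), with exact Poisson intervals for sums, exact conditional (Clopper-Pearson) intervals for ratios and exact binomial intervals for shares (Python 3.11.15, NumPy 2.4.6, SciPy 1.17.1, pandas 2.3.3). UMIs are molecules of 1 sample, so intervals cover counting error only. A gene with no UMI in a class is set against a floor of 3 counts over the class. Sums and counting were tested on simulated data. The members and the 35 gene lists were chosen with earlier results of these data known. Named genes were a fixed set of markers, the 12 largest ratios each way with at least 50 CPM and an ordinary symbol, and in each list up to 4 members by level and up to 2 by ratio at 20 CPM. Other list members and the genes of the 3 kinds of Mpo-low cell were chosen after their values were seen. Promoters were taken from RefSeq (GRCm38.p6) by symbol.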

Additional observations from a re-analysis of the deposited data

Results flagged for a closer look

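Camp differed in direction between the days. On day 5 of DMSO it was higher in Mpo-low than in Mpo-high cells by 5.17 on the log2 scale (752 and 82 UMIs). On day 1 of DMSO it was lower, with 2 UMIs in the 170 Mpo-low cells and 50 in the 713 Mpo-high cells, a ratio of 0.174 (0.0205 to 0.663, counting error only). The difference between the days was not tested, since each is 1 sample. On day 1 of benzarone the UMIs were 28 and 13, and on day 3 they were 302 and 36.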

How the results depend on the processing

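The 340 cells come from 1 sample, so no replicate could be left out. No paired analysis was possible because each single-cell condition is 1 sample and no result comes from a test. The 349 higher and 38 lower genes became 437 and 64 with an Mpo cut at 250 CPM and 280 and 15 at 1000. With cells thinned to 10000 UMIs they were 451 and 101, without ribosomal protein and mitochondrial genes 381 and 69, at a fold of 1.5 706 and 419, with no filter beyond 1 UMI 1029 and 289, and at 50 CPM or more 138 and 10. All other settings, added ones included, gave 321 to 409 higher and 28 to 52 lower genes. The share of Mpo-low cells was 15.5% at a cut of 250 and 28.9% at 1000. With the 99th in place of the 95th percentile, 80 cells were late-high and 11 stem-high, and with thinned cells 31 were stem-high. The share of all genes with a Ty1 peak was 42.0% within 1 kb and 48.3% with every replicate 1 peak. No named gene that passed 2-fold changed direction under any setting run. At a cut of 1000, Cebpe, Nfkbia, Plin2, Ccnd3, Ier3, Mcpt8, Ydjc, Igfbp4, Fam195a and Hpgd fell short of 2-fold. So did Ifi27l2a, Ly6a, Csf1r, Ier3, Mcpt8, Ydjc and Igfbp4 without benzarone-like cells, Mcpt8, Ydjc, Igfbp4 and Fam195a without S100a8, S100a9 and stefins, Mcpt8 without cells under 10000 UMIs, and Ier3 without ribosomal protein and mitochondrial genes. The alternatives without benzarone-like cells, without S100a8, S100a9 and stefins, and for the percentiles were chosen after seeing the data. Genes seen in few cells, such as Camp, rest on those cells.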

Other observations

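Among the lists of metabolism, of 21 cholesterol synthesis genes none passed 2-fold between Mpo-low and Mpo-high cells of day 5 DMSO, with a median log2 ratio of -0.04, and of 17 respiratory chain genes none did, with a median of -0.16. Of 16 glycolysis genes none passed 2-fold, with a median of 0.29. Of 8 genes of lipid storage 4 were higher, against 5.39% of all genes, with a median of 0.76 and 2 of the 8 past the level filter through Mpo-low cells alone. They include Plin2, the coat protein of lipid droplets, at 171 and 79.1 CPM. The ferritin subunits stood at 5858 and 3139 for Fth1 and 11615 and 8934 for Ftl1. Rara, the retinoic acid receptor alpha, was 1 of 2 granulocyte regulators that were higher, at 29.1 and 7.16, next to Cebpe at 53.8 and 22.2, while Gfi1 stood at 22.0 and 30.6 and Cebpb at 767 and 549.

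Mpo-high cells with a high late neutrophil list were also present: 67 of 1322 lie above the 95th percentile by construction, and the highest of them held 174116 CPM of the list. Nkg7 stood at 239 CPM in stem-high cells (256 UMIs), 24.2 in the remaining Mpo-low cells, 11.9 in late-high and 51.4 in Mpo-high cells. On day 1 its levels were 93.3, 16.0, 1.53 and 44.3 in the same order.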
